A study of Homo sapiens with 12 samples.

Results

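H7-only open regions are stretches of the autosomes where a peak of accessible chromatin was called in 3 of 3 libraries of H7, a line of human embryonic stem cells, and in 0 of 3 libraries of ARPE-19, a spontaneously arising line of human retinal pigment epithelial cells. They were found by merging the peaks of all 6 lists wherever they overlapped by at least 1 base, on build hg19. The rule left 1470 H7-only regions among 81770 merged regions, or 1.8% of them, and they covered 634 kb in all. These calls chose the regions, so the absence of ARPE-19 peaks and the presence of H7 peaks in them are no result.

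Accessibility was measured by ATAC-seq, in which the Tn5 transposase cuts and tags open chromatin, in 3 libraries per line from 500000 cells each. ARPE-19 was grown in DMEM with fetal bovine serum, and H7 in mTeSR Plus, a medium that keeps stem cells undifferentiated; the labels name no treatment or genetic change in either line. Each group is a single cell line, and the labels do not say whether the triplicates came from separate cultures, so the spread below may be technical. The title concerns expression of TERT, the reverse transcriptase of telomerase, and 6 samples of 4C in the series were not analysed here.

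Open chromatin marks places where regulatory proteins have displaced nucleosomes. Promoters of widely used genes are open in most cell types, whereas enhancers, which act on promoters at a distance, are often open in only 1 or a few cell types. In embryonic stem cells the factors POU5F1 (OCT4), SOX2 and NANOG bind many such enhancers and keep genes of the pluripotent state active. Which genes lie beside the H7-only regions, whether the regions are promoters, and which motifs they hold was not analysed here, because gene models and sequence of hg19 were not used. The marker genes of either cell type were not checked for the same reason.

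The peak lists carry no read totals, but the reads at each summit and the background the caller used were recovered from the deposited fold and p. The genome-wide background, a measure of relative depth, was 1.38-fold higher in the H7 libraries. The autosomal H7 lists held 14725, 13124 and 8295 peaks in replicates 1, 2 and 3, and the ARPE-19 lists 38872 to 46942. The fewest reads of a called peak were 5 to 6 in H7 and 4 in ARPE-19, so that an H7-only region is one not called in ARPE-19 at this depth, which does not show closed chromatin there.

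H7-only regions were a small part of what was called in H7. They made up 10.0%, 11.2% and 17.8% of the autosomal peaks of H7 replicates 1, 2 and 3, the highest share being that of the shortest list. Of 24975 regions with a peak in any H7 library, 5.89% were H7-only. Another 13812 were called in 1 H7 library and no ARPE-19 library, and 2719 in 2 H7 libraries and no ARPE-19 library. Among the 3269 regions called in all 3 H7 libraries, 45.0% were H7-only (Wilson 95% interval 43.3% to 46.7%, counting error only). The other 1799 also had an ARPE-19 peak, and 1495 of them had one in 3 of 3 ARPE-19 libraries. Regions open throughout H7 therefore mostly fell at the ends, with 1470 in no ARPE-19 library, 146 in 1 and 158 in 2. The 1799 regions open in both lines are the comparison used below, since they too had a peak in 3 of 3 H7 libraries. The demand was somewhat looser there, because ARPE-19 peaks could also widen and join these regions.

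The number of H7-only regions depended on the list of H7 replicate 3. Without that library, 2954 regions had a peak in both other H7 libraries and no ARPE-19 peak. Without H7 replicate 1 or 2 there were 2030 and 2126.

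Calls in a library set aside when regions were chosen give a view that the rule fixes only in part. The regions were still those merged from the peaks of all lists, including the libraries set aside. A peak of such a library could thus widen or join regions, and its part in the shares below was not tested. For each of 9 choices, 1 H7 and 1 ARPE-19 library were set aside, and regions were taken that had a peak in both remaining H7 libraries and in neither remaining ARPE-19 library. This gave 2086 to 3089 regions. H7 replicate 1, when set aside, had a peak in 71.8% to 72.1% of them, against 10.7% of all regions with a peak in any other library. H7 replicate 2 had one in 68.8% to 68.9%, against 10.4%. H7 replicate 3 had one in 49.5% to 49.8%, against 7.77%. Most regions chosen by the calls of 2 H7 libraries thus also had a call in replicates 1 and 2 when these were set aside. In the shortest list about as many were missed as were called. The ARPE-19 library set aside rarely had a peak in such regions. It had one in 3.41% to 3.81% for ARPE-19 replicate 1, in 1.70% to 2.16% for replicate 2 and in 4.27% to 4.52% for replicate 3. The same libraries had a peak in 47.1%, 43.1% and 51% of all regions with a peak in any other library. The wider sets mix regions of all kinds, as only 24975 of the 81770 merged regions had a peak in any H7 library. The gap to them thus follows in part from asking for calls in 2 H7 libraries. Regions with such calls and an ARPE-19 peak were not set beside the chosen ones. The gap is therefore not shown to be particular to regions without ARPE-19 peaks. The 9 choices share libraries, so these shares were not tested.

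The H7 peaks in H7-only regions had moderate numbers of reads but ranked in the upper part of their lists. By q, their median stood at the 79.5th, 76.7th and 67.7th percentile of the lists of H7 replicates 1, 2 and 3. In regions open in both lines it stood at the 83.3rd, 82.8th and 75.4th. The median summit in H7-only regions had 13, 12 and 12 recovered reads in these libraries, with 90% of summits between 8 and 24, 7 and 21, and 7 and 20 reads. Only 40 of the 1470 regions had at least 20 reads in each H7 library, and 453 had at most 12 in each. In 77 regions the highest library had more than 2 times the reads of the lowest. The rule asks for a call in each library, which limits this ratio, so the small number is no result on how well the libraries agree. The demand for calls in several libraries selects higher peaks by construction. Regions called in 2 H7 libraries and no ARPE-19 library had medians of 10, 9 and 9 reads, and those called in 1 H7 library 7, 7 and 8. H7 peaks in regions open in both lines had medians of 15, 14 and 13 reads, above those of H7-only regions in each library.

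**Figure D1:**
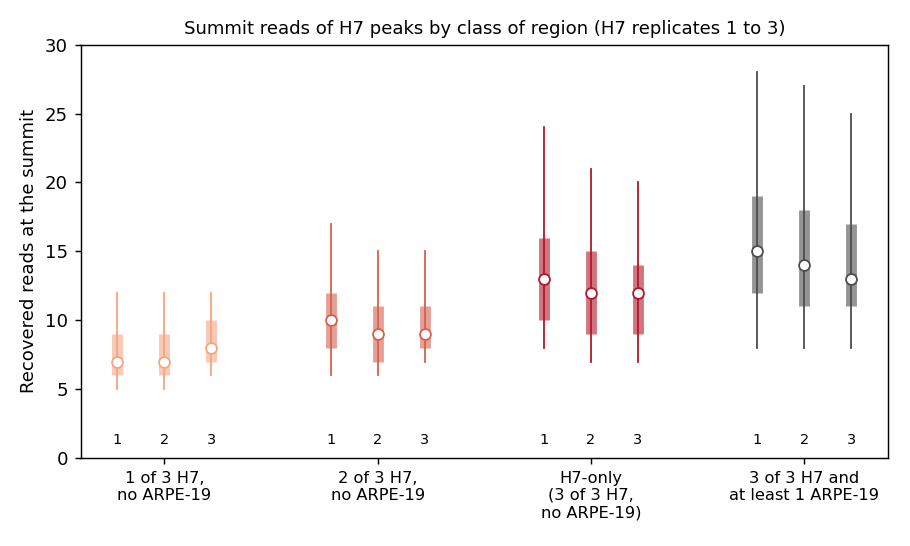
Recovered reads at the summit of H7 peaks (y axis) for 4 classes of region (x axis), with 1 bar per H7 replicate, numbered at the foot. Circles are medians, thick bars the range from the 25th to the 75th percentile and thin lines the 5th to 95th percentile; medians rise from 7 to 8 reads in regions of 1 H7 library to 12 to 13 in H7-only regions and 13 to 15 in regions open in both lines.

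The highest H7-only region by mean rank in the 3 lists lay at chr5:134262521-134262774, with 233, 222 and 212 summit reads in H7 replicates 1, 2 and 3. It stood apart from all others, and its 3 summits lay within 2 bases of each other, from 134262571 to 134262573. The local background there was 18.95, 17.4 and 16.1 times the genome-wide value. The medians of all H7-only regions had a mean of 1.63 times. What adds to the high background was not tested, and no filter for sequence that is hard to map was applied to the peaks here. A second region with a background above 5 times in all 3 H7 libraries lay at chr4:93177519-93178423, with 28, 27 and 28 reads over 6.10, 6.76 and 6.11 times the genome-wide value. A further 2 regions, chr7:14030052-14030343 and chr14:38671702-38672033, passed 5 times in H7 replicate 2 alone, at 5.48 and 5.15 times. These 3 regions were named after their values had been seen, and the other 1466 H7-only regions stayed at or below 5 times in every H7 library.

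The next regions by rank had ordinary backgrounds. The region at chr13:78427780-78428199 had 29, 44 and 36 reads in replicates 1, 2 and 3, with summits spread over 59 bases. The one at chr2:15399504-15400009 had 36, 27 and 32 reads, and the one at chr7:83314313-83314614 had 29, 38 and 28. All 3 were high in every H7 library, with 27 reads or more, and their backgrounds were 2.09 to 2.79 times the genome-wide value.

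Ranks 5 to 10 were close to each other in height. The region at chr4:130947416-130947731 had 25, 30 and 30 reads, and the nearest region with an ARPE-19 peak was 114 kb away. The one at chr1:213843593-213844152 had 29, 29 and 27 reads, and the nearest ARPE-19 peak was 140 kb away (139.64 kb). These are the 2 most isolated of the 10 from ARPE-19 peaks. The region at chr3:101249199-101249578 had 33, 29 and 26 reads, and the one at chr1:196961012-196961675 had 28, 31 and 22. The region at chr5:12323794-12324169 had 31, 42 and 22 reads and lay 7.01 kb from another H7-only region. The tenth, at chr1:200017347-200017796, had 33, 38 and 24 reads and summits within 7 bases of each other, and another H7-only region lay 18.7 kb away. In the last 4 of these, H7 replicate 3 was the lowest library.

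At the lower edge of the rule, the 3 weakest H7-only regions had 6 to 9 reads in every H7 library, close to the fewest that could be called. They lay at chr4:119771074-119771362, with 6, 6 and 9 reads in replicates 1, 2 and 3, at chr17:53428040-53428265, with 7, 7 and 6, and at chr4:42770001-42770584, with 6, 6 and 7. Just outside the rule stood the 146 regions open in 3 of 3 H7 libraries that had a peak in 1 ARPE-19 library. Their H7 peaks had medians of 13, 11 and 11 reads, close to those of H7-only regions, and their single ARPE-19 peaks had medians of 6, 8 and 8 reads in ARPE-19 replicates 1, 2 and 3. Those ARPE-19 peaks stood at the 14.7th, 20.9th and 25.7th percentile of their lists, among the weaker ones.

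The neighbourhood of H7-only regions held fewer reads than that of regions open in both lines. The local background of the H7 peak, which the caller took from the surrounding sequence of the same library, was 1.69, 1.62 and 1.58 times the genome-wide value at the median H7-only region in H7 replicates 1, 2 and 3. It was 2.05, 2.09 and 2.05 times at the median region open in both lines. The values of the 2 classes did not overlap, and the difference was -0.435 ± 0.0603 times the genome-wide background (SD, n = 3; lower in 3 of 3 libraries; exact two-sided sign-flip permutation p = 0.25). With 3 libraries, 0.25 is the smallest p this test can give, so none of the comparisons between these classes can pass 0.05. H7-only regions lay at the genome-wide background itself in 4.31% ± 0.968 of cases, against 0.871% ± 0.160 of regions open in both lines (SD, n = 3, lists of 1470 and 1799 regions).

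This difference was also present among peaks of the same height, a comparison chosen after the values had been seen. At 5 to 9 summit reads the background was 1.29 to 1.34 times the genome-wide value over the 3 libraries in H7-only regions and 1.50 to 1.56 times in regions open in both lines. At 10 to 12 reads it was 1.52 to 1.57 against 1.82 to 1.90, and at 13 to 16 reads 1.71 to 1.80 against 2.01 to 2.12. At 17 to 24 reads it was 1.98 to 2.15 against 2.36 to 2.47, and at 25 or more 2.50 to 2.69 against 3.02 to 3.11. H7-only regions were thus lower in every library at all 5 levels, with no overlap. The background rose with the number of ARPE-19 libraries that had a peak in the region: the mean over H7 libraries was 1.63 with 0, 1.72 with 1, 1.84 with 2 and 2.12 with 3. On each of the 19 autosomes with at least 10 regions of both classes, the median background was lower in H7-only regions, with differences from -0.800 to -0.134 times the genome-wide value. Reads of the peak and of its neighbours may enter this background, and their part in the difference was not tested.

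**Figure D2:**
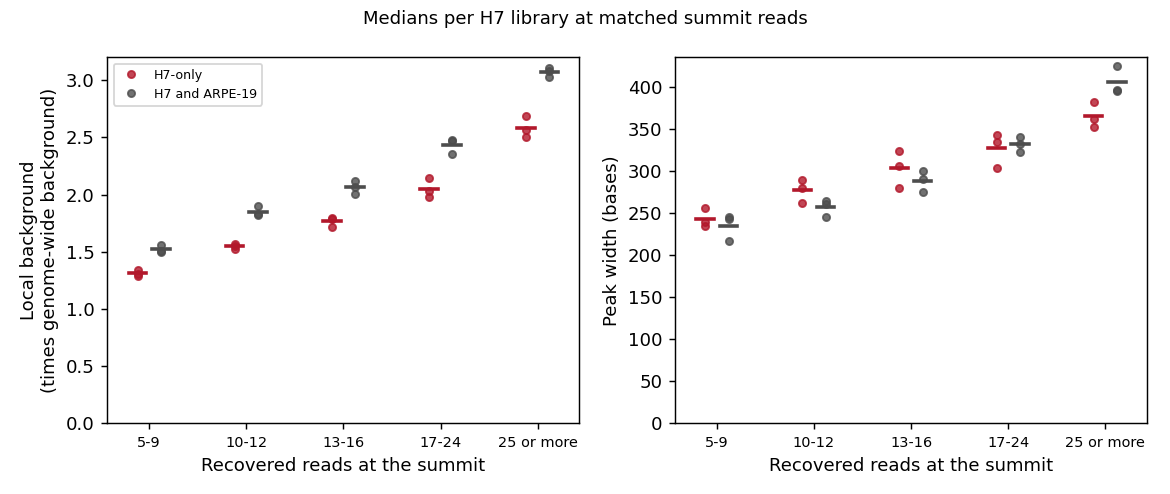
Median local background (left y axis, times the genome-wide background) and median peak width (right y axis, bases) of H7 peaks by recovered summit reads (x axis), with 1 point per H7 library and a line at their mean. Background in H7-only regions lies below that of regions open in both lines at each level of reads, while widths cross, with 277 against 257 bases at 10 to 12 reads and 366 against 406 at 25 or more.

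H7 peaks were about as wide in H7-only regions as in regions open in both lines. The median width was 303, 288 and 266 bases in H7-only regions in H7 replicates 1, 2 and 3, and 305, 294 and 274 bases in regions open in both lines. The difference within libraries was -5.33 ± 3.06 bases (SD, n = 3, lower in 3 of 3 libraries, exact sign-flip permutation p = 0.25). The widths themselves had an SD of 18.6 bases over the libraries in H7-only regions. Leaving out every peak that stood on a background above 5 times turned the difference to 0.667 bases. Width grew with height in H7-only regions, from a mean of 244 bases at 5 to 9 reads (243.5) to 366 at 25 or more. Among peaks of 10 to 12 reads, those in H7-only regions were wider in 3 of 3 libraries, by 20.3 ± 5.13 bases, and among peaks of 13 to 16 reads by 14.7 ± 9.50 bases (SD, n = 3). Among peaks of 25 reads or more they were narrower in 3 of 3 libraries, by 39.8 ± 4.62 bases, where the smallest library had 20 H7-only peaks. At 5 to 9 and at 17 to 24 reads the libraries differed in direction.

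The merged H7-only regions had a median width of 411 bases, with quartiles at 328 and 512. Regions open in both lines, which ARPE-19 peaks could widen too, had a median of 564 bases. The strongest peaks of the 3 H7 libraries shared at least 1 base in 1432 of 1470 H7-only regions. They shared none in 38, against 70 of the 1799 regions open in both lines. In H7-only regions the stretch common to all 3 peaks had a median of 181 bases, or 48.6% of their joint extent. In 14 H7-only regions a library had more than 1 peak. The 5 widest regions differed in how their peaks were laid out. At chr3:109074420-109075627, the widest with 1208 bases, the summit of replicate 1 lay at 109074633 and those of replicates 2 and 3 at 109075325 and 109075413, a spread of 780 bases. It had 9, 10 and 16 reads. At chr13:61158459-61159625 the summits lay within 142 bases, and the width of 1167 bases came from replicate 1, whose peak had 1021 bases against 253 and 387 in replicates 2 and 3. Replicate 1 also had by far the widest peak at chr2:164204616-164205701, with 919 bases against 285 and 191, and at chr8:106520554-106521521, with 921 against 307 and 241 and summits spread over 665 bases. At chr3:178253997-178255154 the peaks had 670, 546 and 172 bases and summits spread over 651 bases. The strongest of the 5 stood at rank 563 of 1470.

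Summits lay near the middle of the peaks, with medians at 0.486, 0.479 and 0.470 of the width from the left end in H7-only regions in H7 replicates 1, 2 and 3. They fell between 1/3 and 2/3 of the width in 47.8%, 44.1% and 43.4% of H7-only regions, and in 47.2%, 51.2% and 46.1% of regions open in both lines. The difference of -3.07 ± 3.88 percentage points (SD, n = 3; exact sign-flip permutation p = 0.5) was smaller than the spread of the difference between libraries, and replicate 1 went the other way. It was -6.80 ± 3.21 with 8295 peaks taken from each list, and -5.12 without H7 replicate 1. Summits were more central in higher peaks, with a mean of 31.5% at 5 to 9 reads and 64.3% at 25 or more in H7-only regions. Weaker calls were less centred: 37.4% to 39.9% in regions of 2 H7 libraries and 33.9% to 34.6% in those of 1, neither with an ARPE-19 peak. An even spread of summits over the peak would place 1 in 3 there.

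The positions of the summits in an H7-only region were compared between the H7 libraries. Peaks enter a region only by overlapping, which limits how far apart its summits can lie. The distances are thus no result on how well the libraries agree. The distance between the summits of 2 libraries had a median of 51, 53 and 52 bases over the 3 pairs of H7 libraries. The 3 summits of a region spread over a median of 86 bases, with quartiles at 51 and 146. They lay within 50 bases in 365 regions (24.8%), within 100 bases in 837 (56.9%) and over more than 300 bases in 73 (4.97%). Regions open in both lines were alike in this, with a median spread of 87 bases and 56.9% within 100 bases. ARPE-19-only regions, measured in their own 3 libraries, had a median spread of 67 bases and 71.7% within 100 bases; those lists differ in depth and peak height, and the difference was not tested. Across the 1470 regions the summit reads of 2 H7 libraries had Spearman correlations of 0.514 to 0.568, and the widths 0.300 to 0.308. These correlations run over regions, which are not replicates, and the demand for 3 calls narrows the range of both values.

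**Figure D3:**
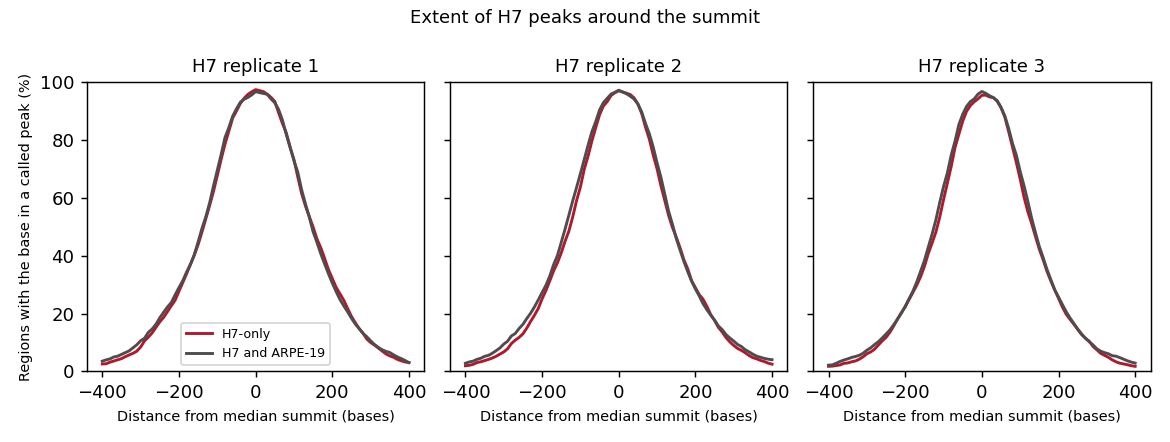
Share of regions whose base lies in a called H7 peak (y axis, percent) by distance from the median of the 3 H7 summits (x axis, bases), in 1 panel per H7 replicate. At 100 bases to the right the share is 73.3%, 70.1% and 66.5% in H7-only regions and 72.9%, 72.2% and 69.1% in regions open in both lines. At 100 bases to the left it is 67.8%, 63.8% and 59.4% against 69.6%, 68.4% and 63.9%, lower in H7-only regions in 3 of 3 libraries.

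Most H7-only regions lay far from the next one on the autosomes. The distance to the nearest other H7-only region had a median of 386 kb, with quartiles at 149 and 866 kb. Only 26 regions (1.77%) had another within 10 kb and 139 (9.46%) within 50 kb. For 304 (20.7%) the nearest lay more than 1 Mb away, not counting chromosomes 19 and 22, which held 1 H7-only region each. Regions open in both lines, of which there were more, had a median distance of 328 kb, with 13.8% within 50 kb and 20.1% with none within 1 Mb. More regions bring neighbours closer by construction, so the gap between the classes was not tested. ARPE-19-only regions, 21378 in number, had a median distance of 25.4 kb. The share within 50 kb was 17.2% without H7 replicate 3, with its larger number of regions.

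**Figure D4:**
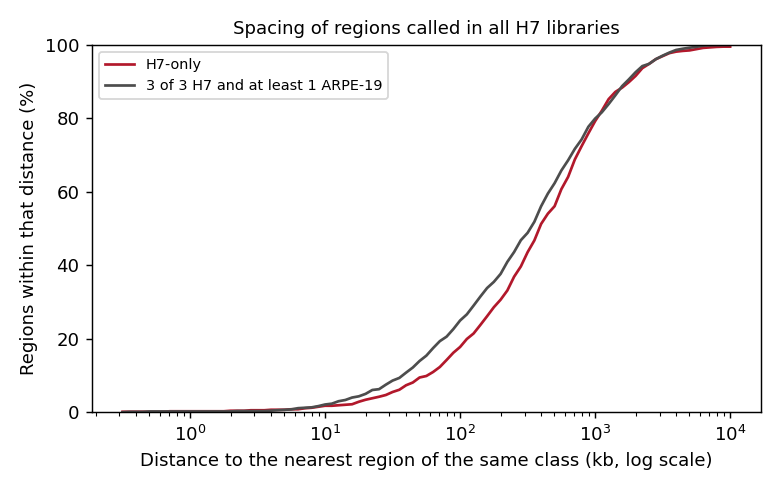
Share of regions (y axis, percent) whose nearest region of the same class lies within the distance on the x axis (kb, log scale). The curve of the 1470 H7-only regions runs below that of the 1799 regions open in both lines from 10 kb to 1 Mb, with 9.46% against 13.8% at 50 kb; at shorter and longer distances the curves are close and cross.

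The 26 regions within 10 kb of another formed 13 pairs, and no 3 regions followed each other at such distances. The pair at chr6:147760095-147760672 and chr6:147769397-147769957 was the strongest of the 3 longest pairs, with 22, 16 and 19 reads in the first and 28, 18 and 22 in the second, and both were high in every library. The longest pair, at chr9:109218813-109219474 and chr9:109229448-109229971, was weak, with 9, 6 and 11 reads and 12, 8 and 6. The first of these regions lay at 1.00 times the genome-wide background in all 3 H7 libraries. The third of the longest pairs, at chr1:71141071-71141826 and chr1:71150813-71151344, had 15, 11 and 11 and 22, 11 and 12 reads, with replicate 1 highest in both. At a distance of up to 50 kb there were 65 pairs and 3 runs of 3 regions. The runs spanned chr1:192808449-192857049, chr1:197744362-197783726 and chr3:66545929-66624035. The runs were singled out after they had been seen.

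In windows of 1 Mb, chosen after the lists had been seen, 1908 of 2889 windows held no H7-only region, 627 held 1, 252 held 2, 74 held 3 and 28 held 4 or more. The variance over windows was 1.40 times the mean for H7-only regions and 1.45 times for regions open in both lines. An independent scatter at an even rate would have a variance equal to the mean, so both classes were spread less evenly than that. The windows took in all sequence up to the last merged region of each chromosome. Those where no peak can be called would raise the ratio, and their number was not determined. ARPE-19-only regions, with a mean of 7.40 per window, left 292 windows empty. The uneven spread was not tested. The most H7-only regions, 6 each, lay in the windows that begin at 134 Mb of chromosome 6 and at 197 Mb of chromosome 1. The window at 209 Mb of chromosome 1 followed with 5. ARPE-19-only regions numbered 6, 8 and 19 in these 3 windows, and regions open in both lines 0, 3 and 3, so the windows were not free of ARPE-19 peaks. Of the 28 windows with 4 or more, 7 lay on chromosome 1 and 7 on chromosome 2.

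The 6 regions in the chromosome 6 window were of moderate height, with 85.7 to 204 kb to the nearest H7-only region. That at chr6:134002889-134003426 had 13, 12 and 13 reads in replicates 1, 2 and 3, and that at chr6:134373783-134374035 had 13, 16 and 12. The region at chr6:134159001-134159557 had 16, 12 and 8 reads, where replicate 3 was low, and the one at chr6:134245226-134245547 had 8, 8 and 14, where it was high. The region at chr6:134495943-134496188 had 12, 9 and 15 reads, and the one at chr6:134700267-134700619 had 9, 10 and 10 at a background of 1.00 to 1.14 times the genome-wide value. No library was high throughout this window.

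In the chromosome 1 window at 197 Mb, the strongest region lay at chr1:197779986-197780370, with 23, 19 and 14 reads, and its neighbour 2.81 kb on, at chr1:197783178-197783726, had 14, 15 and 16. The region at chr1:197744362-197744794 had 11, 15 and 13 reads, and an ARPE-19 peak lay 71 bases away (0.071 kb). The 3 others, at chr1:197369122-197369522, chr1:197411074-197411388 and chr1:197510773-197511169, had 21, 12 and 11, then 11, 14 and 14, then 8, 9 and 9 reads. By mean rank the first of these 3 stood highest in the window, at rank 515, against 632 for chr1:197779986-197780370. In the window at 209 Mb the region at chr1:209979407-209979864 was the highest, with 25, 20 and 23 reads. The other 4 there had 10 to 19 reads.

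ARPE-19 peaks were numerous, with 38872 to 46942 in each autosomal list, so nearness to one follows in part from their number. How near they lie to positions taken at random was not measured. From an H7-only region, the nearest region with a peak in any ARPE-19 library was a median of 17.2 kb away, with quartiles at 6.58 and 42.7 kb. It lay within 1 kb of 78 H7-only regions (5.31%), within 10 kb of 510 (34.7%) and farther than 100 kb from 131 (8.91%). The weaker regions without an ARPE-19 peak had nearly the same distances, with a median of 17.4 kb for those of 2 H7 libraries and 16.9 kb for those of 1. Regions open in both lines were closer to the next other region with an ARPE-19 peak, at a median of 12.9 kb, and 1.72% of them had none within 100 kb. The rule keeps ARPE-19 peaks out of H7-only regions, so part of this distance follows from it, and it was not tested. When the 78 regions with an ARPE-19 peak within 1 kb were left out, 1392 remained with a median peak width of 286 bases.

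The share of H7-only regions among those called in all 3 H7 libraries differed widely between autosomes. It was lowest on chromosome 19, with 1 of 37 regions, or 2.70% (Wilson 95% interval 0.479% to 13.8%). Chromosome 22 had 1 of 9, chromosome 17 had 14 of 49 (28.6%), chromosome 20 had 9 of 31 (29.0%) and chromosome 16 had 10 of 34 (29.4%). It was highest on chromosome 18, with 45 of 67, or 67.2% (55.3% to 77.2%). Chromosome 13 had 72 of 129 (55.8%), chromosome 8 had 99 of 178 (55.6%) and chromosome 2 had 166 of 318 (52.2%). The 13 other autosomes lay between 31.6% and 48.6%, around the 45.0% over all.

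Single H7 libraries were lowest on chromosome 19 too, though they share the 3 ARPE-19 lists. On chromosome 19, 23.2%, 25.5% and 25.4% of the regions called in H7 replicates 1, 2 and 3 had no ARPE-19 peak, against 69.9%, 66.0% and 57.8% over all autosomes. On chromosome 18 the shares were 76.0%, 70.7% and 69.5%, and on chromosome 13 they were 78.3%, 75.6% and 68.9%. Chromosome 13 was the highest in replicates 1 and 2 and chromosome 18 in replicate 3. In replicate 2, chromosomes 8, 4 and 2 lay above chromosome 18, at 72.8%, 72.0% and 71.7%. In replicate 1 they lay just below it, at 75.3%, 75.6% and 75.6%. In each library chromosome 19 lay below and chromosomes 18 and 13 above the share over all autosomes. The value on chromosome 19 moved with the processing: the share of H7-only regions there was 10.0%, 6.25% and 9.84% without H7 replicates 1, 2 and 3, and 13.7% when 2 of 3 H7 libraries sufficed. With 8295 peaks from every library, which shortens all lists of both lines but that of H7 replicate 3, it was 38.5%, while over all autosomes it was 65.8%, on chromosome 18 it was 75.5% and on chromosome 13 it was 79.2%. The regions are not replicates, and these shares were not tested.

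**Figure D5:**
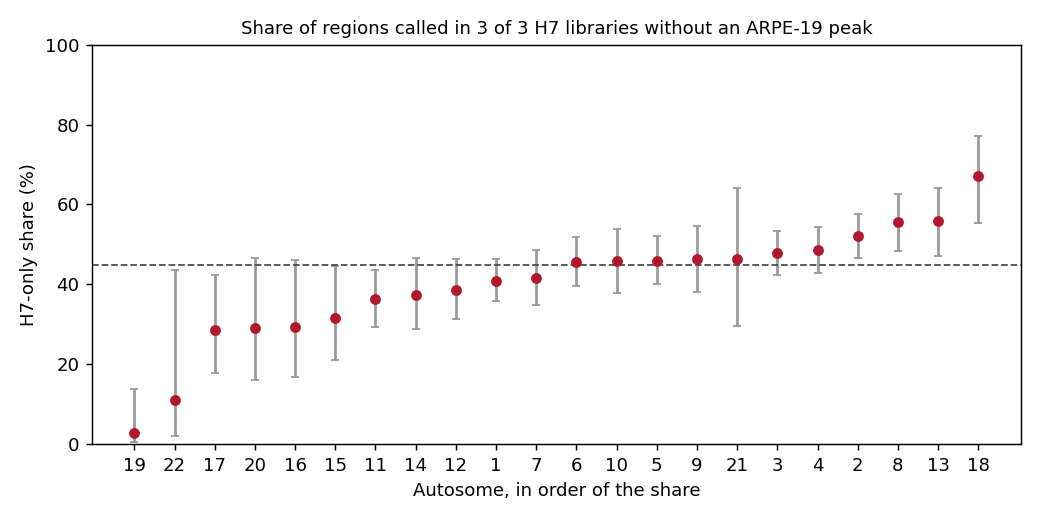
Share of H7-only regions (y axis, percent) among regions called in 3 of 3 H7 libraries, by autosome in order of the share (x axis), with Wilson 95% intervals for counting error and a dashed line at the 45.0% over all autosomes. Chromosomes 19 and 18 stand at the ends, at 2.70% and 67.2%.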

How the data were processed

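Each library had 1 peak list, called per library with MACS2 on hg19, with bedtools also named, per the submitters' processing notes; their versions, the aligner, duplicate handling and read shift are not given in the sources used here. The deposited lists give a fold enrichment (ratio) at the summit over local background and the authors' -log10 p and -log10 q. The deposited score is 10 times -log10 q and was not used further. Autosomal peaks were merged, and the strongest peak per library stood for it in each region. Summit reads and backgrounds were solved from fold and -log10 p, as MACS2 defines them, within 0.001 for at least 99.988% of peaks per library (MACS2 counts may include duplicates). The lowest background is the genome-wide one. Steps were tested on simulated data.

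Classes were compared within the 3 H7 libraries by an exact sign-flip permutation test. Planned results on start sites, neighbouring genes, gene lists and motifs were not run, because models and sequence of hg19 were not used here. Regions were named by mean within-library percentile of -log10 q (first 10, last 3), width (first 5) and chains within 10 kb (longest 3). Members, lists and rules were chosen with earlier results of these data known. Analyses ran in Python 3.11.15 with scipy 1.17.1, pandas 2.3.3 and numpy 2.4.6, and plots in matplotlib 3.10.9.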

Additional observations from a re-analysis of the deposited data

How the results depend on the processing

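The count of H7-only regions was 584 when peaks needed a -log10 q of 5 or more, 979 when each had to cover at least 50% of its merged region and 4189 when 2 of 3 H7 libraries sufficed. Omitting single libraries gave 1498 to 2954, highest without H7 replicate 3. The share within 50 kb of another H7-only region was then 4.45%, 7.05% and 21.4%, with 9.41% to 17.2% on omitting libraries. Median width was 308 bases with the q threshold and 255 with 2 of 3 H7 libraries, and 263.5 to 286 on omitting libraries. Against regions open in both lines, the width difference was -18 bases with the q threshold, -17.2 with lists of equal length, -37.3 with 50% coverage, -11.7 with 2 of 3, and 0.667, its sign turned, once backgrounds over 5 times were removed; omitting libraries gave -13.5 to -5.83. The difference in local background stayed below 0 in all 12 settings run, at -0.512 with the q threshold, -0.513 with 50% coverage and -0.468 to -0.419 on omitting libraries. The difference in summits between 1/3 and 2/3 of the width stayed below 0 in the same 12 settings, from -6.80 percentage points with equal lists to -0.806 with the q threshold, and from -5.12 to -1.74 on omitting libraries. The H7-only share of regions called throughout H7 was 42.6% with the q threshold, 65.8% with equal lists, 64.4% with 50% coverage, 46.9% without high backgrounds and 53.9% with 2 of 3, and 45.8% to 53.0% on omitting libraries. The cause was not tested. Chosen after seeing the data were all settings for the differences between classes, for the H7-only shares over all and by chromosome and for calls in libraries set aside, and, for width and the share within 50 kb, those with 2 of 3 H7 libraries and with no ARPE-19 peak within 1 kb. No paired analysis was possible because the replicate numbers could pair libraries only across the lines, a contrast that the rule used and that was not tested; the tests made take differences of the 2 classes within each H7 library. Calling needed 4 to 6 reads, which limits what can be seen in either line.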
